A study of Mus musculus with 28 samples.

Results

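Transcripts of interleukin-1 alpha (Il1a), interleukin-1 beta (Il1b), the interleukin-1 receptor antagonist (Il1rn) and interleukin-6 (Il6) were followed in implanted scaffolds of healthy and tumor-bearing mice. The members are every assay carrying one of these 4 gene symbols, which gave 7 of the 648 assays on the inflammation panel and 4 of its 584 genes. Il1a and Il1rn had 1 assay each, Il1b had 2 and Il6 had 3. The tissue was what grew into a microporous scaffold of the polymer PCL (polycaprolactone) placed in female BALB/c mice, and 1 scaffold per mouse was measured by RT-qPCR, that is, PCR on cDNA followed cycle by cycle. Tumor-bearing mice had received 4T1-luc2-tdTomato cells, a mouse mammary carcinoma line that carries luciferase and a red fluorescent protein. Healthy mice were tumor-free controls that carried the same scaffold, although the labels list the cell line for them as well. At 7 and at 21 days after inoculation 3 mice of each condition were sampled, and at 14 days 8 of each. The scaffold was homogenised whole, and the labels call the tissue an infiltrate of immune, stromal and epithelial cells. The labels used here give no age.

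Il1a and Il1b are agonists that signal through the same receptor, Il1r1, whose adaptor Myd88 leads to NF-kappaB and to chemokines that draw neutrophils. IL-1 beta is made as an inactive precursor that is cut by caspase-1 in inflammasomes such as that of Nlrp3, so its transcript level is not a measure of secreted cytokine. The antagonist Il1rn occupies the receptor without signalling, and IL-6 signals through Il6st (gp130) to Stat3.

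A value here is a relative quantity, which is 2 to the power of the reference cycle minus the assay's own quantification cycle (Cq). The reference in these data is the mean Cq of a set of reference genes in the same sample. Assays differ in efficiency, so quantities of different assays are not compared as amounts. In a homogenised scaffold, fewer cells that make a transcript and less of it per cell cannot be told apart. Between 475 and 587 assays gave a value per sample, and 312 did so in all 28. The 7 physical panels are lettered from A. Panel D took 4 healthy and panel G 4 tumor-bearing day 14 samples, and the remaining panels mixed the conditions. Neutrophil markers stood higher in tumor-bearing mice, with 8 of 8 past the threshold at day 14 (1.7% of all assays passed as higher) and 4 of 8 at day 21 (1.05%). These counts depended on the processing and on single mice. With missing reactions at the largest Cq, only 4 assays of the whole panel passed at day 14 and 0 at day 21. With only the day 14 samples, 6 passed at day 14, and without healthy day 21 replicate 23, 1 passed at day 21. In the main fit 0 of 5 monocyte and macrophage markers passed at day 14. Of 54 reactions more than 4 cycles from their group's median, healthy day 14 replicate 14 held 10 and tumor-bearing day 21 replicate 26 held 11.

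Il1a and Il1b lie side by side on the minus strand of chromosome 2, at chr2:129299609-129310186 and chr2:129364569-129371164 (GRCm38.p6), with 54382 bases and 0 protein-coding genes between them. Il1rn lies on the plus strand of the same chromosome at chr2:24336860-24351491, and Il6 on the plus strand of chromosome 5 at chr5:30013114-30019975. The 250 bases before a RefSeq transcript start are shown for each gene because Il1a and Il1b varied together between mice whereas Il1rn hardly varied. They are chr2:129309973-129310222 for Il1a, chr2:129371140-129371389 for Il1b, chr5:30012864-30013113 for Il6 and chr2:24336610-24336859 for the first of 3 listed Il1rn starts. Part of the Il1a and Il1b windows lies inside the annotated gene span, since other transcripts start further upstream. Sequences run 5′ to 3′ on the gene's strand, and capitals mark matches to any of 4 motifs.
Il1a: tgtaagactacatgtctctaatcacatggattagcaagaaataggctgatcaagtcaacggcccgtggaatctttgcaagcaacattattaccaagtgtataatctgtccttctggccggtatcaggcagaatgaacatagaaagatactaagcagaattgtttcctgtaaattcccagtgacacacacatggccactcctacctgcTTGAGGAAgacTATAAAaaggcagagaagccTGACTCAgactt
Il1b: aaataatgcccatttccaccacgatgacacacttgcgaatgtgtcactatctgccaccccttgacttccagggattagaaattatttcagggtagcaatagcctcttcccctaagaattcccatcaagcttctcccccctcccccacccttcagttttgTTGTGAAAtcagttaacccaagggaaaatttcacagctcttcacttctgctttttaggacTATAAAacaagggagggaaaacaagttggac
Il6: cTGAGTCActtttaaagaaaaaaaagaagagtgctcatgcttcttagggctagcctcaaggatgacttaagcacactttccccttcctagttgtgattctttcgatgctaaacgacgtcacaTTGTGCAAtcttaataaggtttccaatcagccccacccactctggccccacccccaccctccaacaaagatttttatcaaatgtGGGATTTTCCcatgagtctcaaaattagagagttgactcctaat
Il1rn: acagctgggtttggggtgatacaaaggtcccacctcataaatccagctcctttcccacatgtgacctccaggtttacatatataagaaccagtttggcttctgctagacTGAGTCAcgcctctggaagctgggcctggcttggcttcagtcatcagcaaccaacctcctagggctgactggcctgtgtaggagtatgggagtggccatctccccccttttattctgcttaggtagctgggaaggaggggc
The motifs were TATAAA (the TATA box), TTGNGNAA (C/EBP), GGG, any 3 bases and TTCC in a row (NF-kappaB) and TGANTCA (AP-1), searched on both strands in the same 250 bases of 27025 RefSeq promoters. TGANTCA reads the same on both strands, and no match shown overlaps another. They were picked from textbook knowledge of inflammatory promoters, so a match is a description of the letters only. TATAAA occurred in 13% of all promoters, TTGNGNAA in 11.6%, TGANTCA in 6.87% and the NF-kappaB letters in 4.6%. The Il1a window had a TATA box 32 bases before the start, a C/EBP match and an AP-1 match. The Il1b window had a TATA box 31 bases before the start and a C/EBP match 91 bases before it. The Il6 window had the NF-kappaB letters GGGATTTTCC 44 bases before the start, with a C/EBP match at 128 and an AP-1 match at the far end of the window. The first Il1rn start had an AP-1 match at 141, and the windows of its other 2 starts overlap and share a single C/EBP match, with an NF-kappaB match in the last.

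No member assay passed the threshold (adjusted p under 0.05, limma with Benjamini-Hochberg adjustment over all assays tested) in tumor-bearing against healthy mice at any day. The count was 0 of 7 at day 7, where 0.0% of 565 assays passed, 0 of 7 at day 14, where 2.38% of 588 passed, and 0 of 7 at day 21, where 1.22% of 573 passed. It was also 0 of 7 for the mean of the 3 days, where 2.5% of 559 assays passed. Without adjustment, 12 (2.12%), 62 (10.5%), 52 (9.08%) and 49 (8.77%) assays had a p under 0.05 in these 4 comparisons, and none was a member assay. At day 7 and day 21, 0 of 7 member assays separated the conditions without overlap, against 7.88% and 16.3% of assays measured in every mouse of the day. At day 14 it was 0 of the 5 member assays with all values, against 0.0% of 355 assays.

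**Figure D1:**
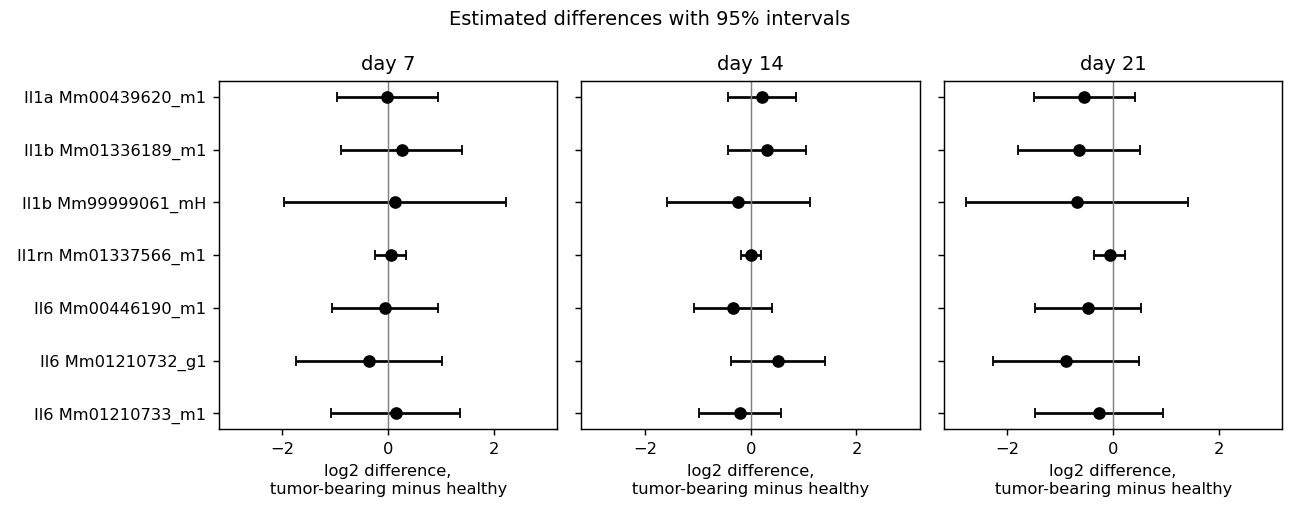
Log2 differences, tumor-bearing minus healthy, of the 7 member assays at days 7, 14 and 21 (points) with 95% intervals from limma (bars). Every interval spans 0, and that of Il1rn is the narrowest at each day, from -0.18 to 0.20 at day 14.

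Il1a, the agonist that is active without caspase-1 processing, had a relative quantity of 0.0384, 0.0357 and 0.0358 in the healthy mice at day 7 and 0.0322, 0.0312 and 0.0477 in the tumor-bearing mice. At day 14 the healthy mice ran from 0.0131 to 0.0534 with a median of 0.0228, and 7 tumor-bearing mice from 0.0192 to 0.0388 with a median of 0.0263. The reaction of tumor-bearing replicate 21 gave no Cq. At day 21 the healthy mice had 0.0617, 0.0480 and 0.0465 and the tumor-bearing mice 0.0780, 0.0199 and 0.0287. The conditions overlapped at every day. At day 21 tumor-bearing replicate 26 was the highest of the 27 mice with a value, and replicates 27 and 28 lay below every healthy mouse of that day. The log2 difference was -0.01 ± 0.46 (SE), 0.21 ± 0.31 and -0.54 ± 0.46 at days 7, 14 and 21, with limma adjusted p of 0.997, 0.841 and 0.887. As a fold, the day 14 difference was 1.16 with a 95% interval from 0.743 to 1.80.

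Il1b, the agonist released through the inflammasome, was measured by Mm01336189_m1, which amplifies 63 bases, and by Mm99999061_mH, which amplifies 99 bases. With the 63-base assay, healthy mice at day 7 had 0.578, 1.22 and 0.421 and tumor-bearing mice 0.673, 0.888 and 0.843. At day 14 the healthy mice ran from 0.122 to 0.756 (median 0.397) and the tumor-bearing mice from 0.211 to 1.17 (median 0.423). At day 21 the healthy mice had 0.813, 0.701 and 1.07 and the tumor-bearing mice 0.815, 0.368 and 0.527. The tumor-bearing values lay within the healthy range at day 7, and at day 21 those of replicates 27 and 28 lay below every healthy mouse. The day 14 medians were close beside a range of several fold in each condition. At days 7, 14 and 21 the log2 difference was 0.25 ± 0.56 (SE), 0.31 ± 0.36 and -0.65 ± 0.56, with limma adjusted p of 0.997, 0.766 and 0.887. The exact two-sided permutation test over the 8 and 8 mice of day 14 gave p = 0.487.

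**Figure D2:**
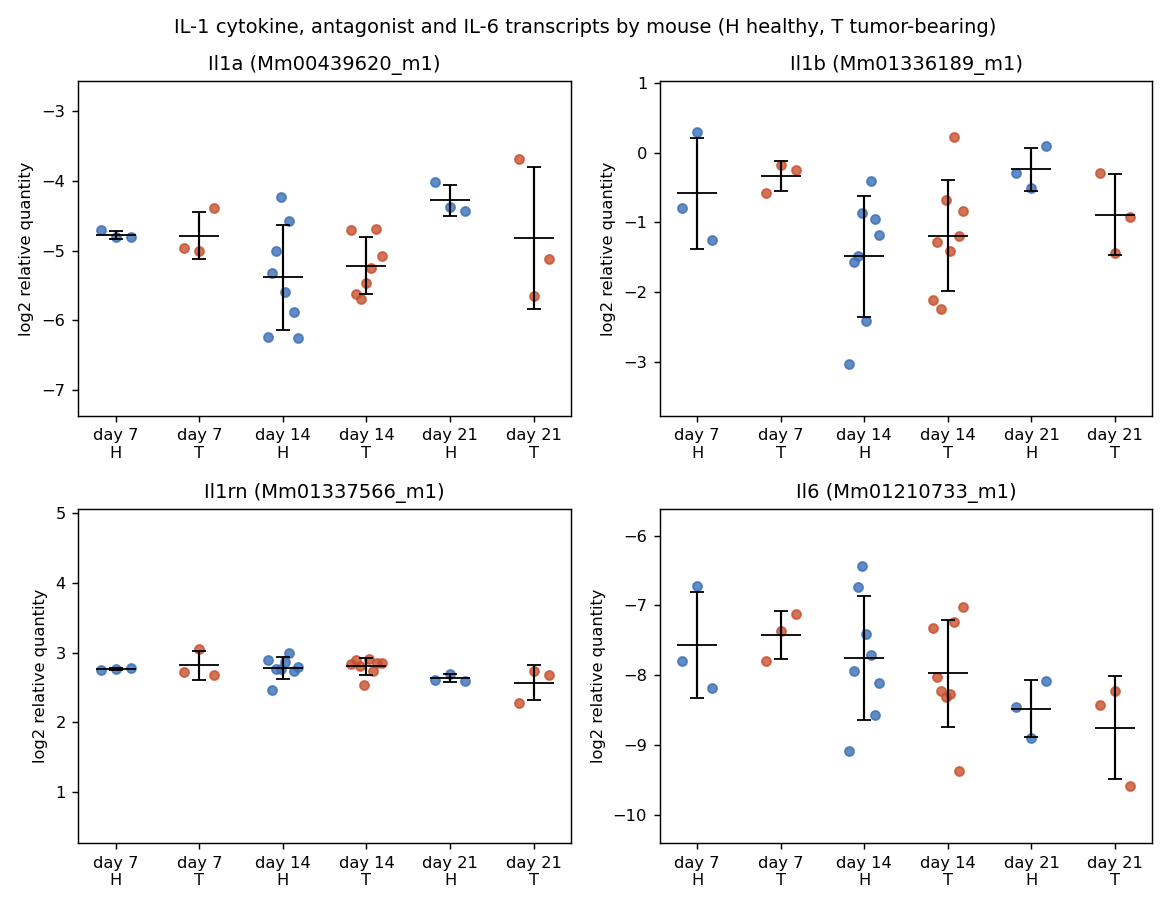
Log2 relative quantity of 1 assay per gene in each mouse (points; H healthy, T tumor-bearing), with the group mean and SD (bars); every panel spans the same number of log2 units. Il1b spans a range of 10.0 times (0.122 to 1.22) and Il1rn a 1.7-fold range (4.85 to 8.26), and the conditions overlap at each day.

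The 2 Il1b assays parted most in 1 sample, and the sign of the 99-base day 14 difference turned on it. In healthy day 14 replicate 14 the 99-base assay crossed its threshold at Cq 15.494 and the 63-base assay at 19.890. These correspond to relative quantities of 9.26 and 0.44, and the next highest healthy day 14 value of the 99-base assay was 0.338. Across the 28 samples the 99-base assay ran later by a median of 1.09 cycles, so this reaction was earlier by 4.4 cycles where others were later. Tumor-bearing day 14 replicate 15 was the only other sample in which it ran earlier, by 0.53 cycles. Pearson's r of the assays over samples was 0.48 with all 28 samples, 0.89 without healthy replicate 14 and 0.97 without both, as a description of assays that share each sample's reference. The 99-base day 14 difference was -0.23 ± 0.65 (SE, limma adjusted p = 0.921) with all reactions and 0.56 (adjusted p = 0.590) once reactions over 4 cycles from their group median were left out. The reaction of healthy replicate 14 was the only member reaction among the 54 that far out. That of tumor-bearing replicate 15 stayed in the fit. The 63-base day 14 difference was 0.31 with all reactions. At day 7 the 99-base difference was 0.13 and at day 21 it was -0.69. What set the reaction of replicate 14 apart was not tested.

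**Figure D3:**
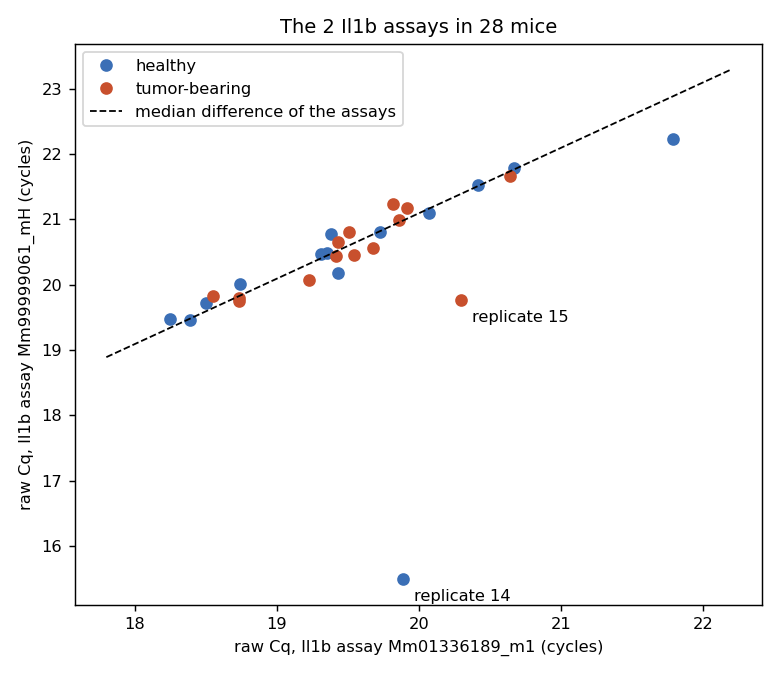
Raw Cq of the 99-base Il1b assay against the 63-base assay in each mouse, with the median difference of 1.09 cycles drawn as a dashed line. Healthy day 14 replicate 14 lies 4.4 cycles earlier on the 99-base assay than on the 63-base assay, tumor-bearing day 14 replicate 15 lies 0.53 cycles earlier, and in the other samples the 99-base assay is later by 0.44 to 1.42 cycles.

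Il1rn, the antagonist, was the member with the least spread. Healthy mice had 6.75, 6.79 and 6.87 at day 7 and tumor-bearing mice 6.59, 8.26 and 6.39. At day 14 the healthy mice ran from 5.50 to 7.99 (median 6.86) and the tumor-bearing mice from 5.80 to 7.48 (median 7.15). At day 21 the values were 6.09, 6.47 and 6.03 in healthy mice and 4.85, 6.67 and 6.43 in tumor-bearing mice. The groups overlapped at each day, and the highest and lowest of the 28 mice were both tumor-bearing, replicate 5 at day 7 and replicate 26 at day 21. The fold of tumor-bearing over healthy mice was 1.01 at day 14, with a 95% interval from 0.886 to 1.15, and 0.999 for the mean of the days, from 0.899 to 1.11. The corresponding limma adjusted p were 0.972 and 1. In the authors' deposited table the Il1rn folds for the 3 days were 1.03, 1.01 and 0.956.

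Over all 28 mice the SD of Il1rn was 0.158 log2 units, the tenth smallest of the 312 assays with a value in every sample. Of these assays 96.8% varied more. With the sample's median Cq in place of the reference genes, its SD was 0.219 and its rank 30. Among the 11 assays whose median Cq lay within 1 cycle of its own, Il1rn ranked 1, where the median SD was 0.279. The steadiest of all 312 was Il6st, the signalling chain of the IL-6 receptor, with an SD of 0.108. The 63-base Il1b assay had an SD of 0.809, and 83% of the 312 assays varied less. The agonist and its antagonist thus stood far apart in this ranking in the same samples.

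**Figure D4:**
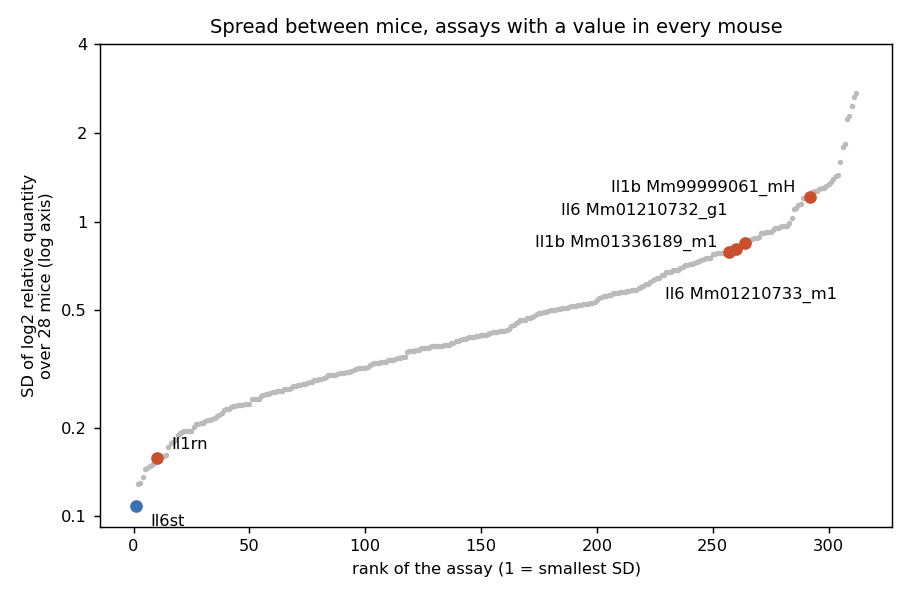
SD over the 28 mice of the log2 relative quantity (log axis) for the 312 assays with a value in every sample, ranked from smallest to largest. Member assays are orange and Il6st is blue: Il6st ranks 1 and Il1rn 10, while both Il1b and 2 of the Il6 assays lie between ranks 257 and 292. Rank 292 is the 99-base Il1b assay, whose values include the outlying 9.26 of healthy day 14 replicate 14. The 63-base Il1b assay ranks 260.

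Because Il1rn was steady, the ratio of antagonist to Il1b within a sample followed Il1b, and the reference genes cancel in it. Its geometric mean at days 7, 14 and 21 was 10.2, 19.3 and 7.31 in healthy mice and 8.84, 15.9 and 11 in tumor-bearing mice. Day 14 had the highest mean ratio in both conditions. The single highest ratio was 61.2 in healthy day 14 replicate 7 and the lowest 5.55 in healthy day 7 replicate 2. These ratios carry no test, and only their differences between samples can be read, since the assays differ in efficiency. The ratio of Il1b to Il1a had geometric means from 14.9 to 21.9 over the 6 groups.

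Il6, an acute-phase cytokine, was the latest to cross the threshold, with a median Cq of 25.65 for Mm00446190_m1, 26.56 for Mm01210732_g1 and 26.62 for Mm01210733_m1. With Mm01210733_m1, healthy mice at day 7 had 0.00450, 0.00950 and 0.00344 and tumor-bearing mice 0.00451, 0.00606 and 0.00719. At day 14 the healthy mice ran from 0.00183 to 0.0116 (median 0.00440) and the tumor-bearing mice from 0.00150 to 0.00772 (median 0.00358). At day 21 the values were 0.00284, 0.00209 and 0.00370 against 0.00289, 0.00334 and 0.00129. With this assay the conditions overlapped throughout, and all 6 values of day 21 lay below the healthy day 14 median. The other Il6 assays differed in healthy day 21 replicates 23 and 24. These had 0.00635 and 0.00528 with Mm01210732_g1, above its healthy day 14 median of 0.00456. With Mm00446190_m1 they had 0.0103 and 0.00823, above 0.00745. The remaining day 21 values lay below these medians. The other assays spanned 4.77-fold (Mm00446190_m1, 25 of 28 samples measured) and 16.5-fold (Mm01210732_g1).

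The 3 Il6 assays did not track each other closely. Pearson's r of the log2 values was 0.73 between Mm00446190_m1 and Mm01210732_g1, 0.61 between Mm00446190_m1 and Mm01210733_m1, both over 25 samples, and 0.39 between the remaining pair over 28. Their day 14 differences pointed in different directions. They were -0.33 ± 0.35 (SE) for Mm00446190_m1, 0.52 ± 0.43 for Mm01210732_g1 and -0.20 ± 0.38 for Mm01210733_m1, with limma adjusted p of 0.757, 0.691 and 0.884. For Mm01210732_g1 the 4 healthy mice on panel D had a geometric mean of 0.00651, all above their group mean, and the 4 on panels A, B, E and F had 0.00198. The tumor-bearing mice had 0.00463 on panel G and 0.00504 on panels A, B, E and F. The positive difference of this assay was therefore present among the mixed panels and not between D and G. Tumor-bearing minus healthy on the same panel, it was 0.004 on A, 0.527 on B, 2.638 on E and 2.226 on F. The healthy samples on E and F were replicates 13 and 14, with values for only 475 and 535 assays. Their tumor-bearing partners, replicates 21 and 22, had values for 489 and 562 assays. On E and F, Mm01210733_m1 gave -0.806 and 1.095, and Mm00446190_m1 had no difference to give. At day 21 the log2 differences of the 3 assays, in the same order, were -0.48, -0.89 and -0.27, and at day 7 they were -0.06, -0.36 and 0.14.

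At day 21 all 7 member assays had a lower estimate in tumor-bearing mice, from -0.06 for Il1rn to -0.89 for Il6 Mm01210732_g1. The median over all 573 assays at that day was -0.001. The 7 assays come from the same 6 mice and none passed the threshold, the smallest limma adjusted p being 0.817. Samples of either condition that shared both day and panel formed 10 pairs. In these the 63-base Il1b value was higher in the tumor-bearing sample in 6 pairs, and Il1rn in 6. Il1a was higher in 4 of 9 pairs, and the Il6 assays in 2 of 8, 7 of 10 and 6 of 10. Exact two-sided sign-flip permutation p-values over the pairs ran from 0.32 to 0.902. The smallest after adjustment over the panel was 0.728.

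Between days, Il1a and the 63-base Il1b assay had their lowest group means at day 14 in both conditions. The 99-base Il1b assay in tumor-bearing mice was lowest at day 21, with a mean of -2.12 log2 units against -1.98 at day 14. In healthy mice the difference of day 21 minus day 14 was 1.14 ± 0.39 log2 units (SE) for Il1a and 1.23 ± 0.47 for the 63-base Il1b assay. These are folds of 2.20 (95% interval 1.25 to 3.87) and 2.35 (1.19 to 4.63). Neither passed after adjustment, with limma adjusted p of 0.136 and 0.184 and unadjusted p of 0.00805 and 0.0158. In this comparison 0.346% of 578 assays passed and 15.9% had an unadjusted p under 0.05. How many assays passed depended on single mice: 2 passed with all mice, 15 without healthy day 14 replicate 12, 13 without replicate 13 and 10 without replicate 10. This number was 0 without day 14 replicate 7 or 11 or without any 1 of the day 21 mice, and no member passed in any of these fits. The 3 healthy day 21 mice were all above the day 14 median for both genes, and the ranges overlapped. The 99-base Il1b assay gave 0.27 (adjusted p = 0.907) with all reactions and 1.12 (adjusted p = 0.186) without reactions over 4 cycles from the group median.

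In tumor-bearing mice the same step was smaller, 0.38 ± 0.40 for Il1a and 0.27 ± 0.47 for the 63-base Il1b assay, with limma adjusted p of 0.771 and 0.875, where 0.0% of 583 assays passed. The difference between conditions in this step was -0.76 ± 0.56 for Il1a and -0.96 ± 0.66 for Il1b, with adjusted p of 0.883 and 0.871, so the steps are not shown to differ (0.0% of 571 assays passed). From day 7 to day 14 the 63-base Il1b difference was -0.87 ± 0.47 in healthy mice and -0.81 ± 0.47 in tumor-bearing mice, with limma adjusted p of 0.445 and 0.663. That step had 0.0% of 572 assays past the threshold in healthy mice and 0.175% of 571 in tumor-bearing mice. Il1a gave -0.62 and -0.40 for the same step. With these assays, both conditions had the lower estimate at day 14 for both agonists, without a call.

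Il1rn was lower by a small amount at day 21 than at day 14 in tumor-bearing mice, with a log2 difference of -0.23 ± 0.12 (SE, limma adjusted p = 0.519). Leaving out tumor-bearing day 21 replicate 26, which had the lowest Il1rn, made it -0.088. For Il6, the lowest unadjusted p between days was 0.041, for Mm01210733_m1 in tumor-bearing mice from day 7 to day 21, with a log2 difference of -1.29 ± 0.60 and an adjusted p of 0.531. In that comparison 0.529% of 567 assays passed and 8.82% had an unadjusted p under 0.05. The other Il6 assays gave -0.84 and -0.42 there. Without tumor-bearing day 21 replicate 28, the Mm01210733_m1 value was -0.83.

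Across mice, Il1a and Il1b varied together, with a Spearman rho of 0.65 over 27 samples. Il1rn had a rho of -0.36 with Il1a and -0.37 with Il1b, and the Il6 assays had rho from -0.07 to 0.21 with the 63-base Il1b assay. These correlations are descriptions: the points share reference genes, panels and groups. Within the day 14 groups, Il1a and Il1b had a rho of 0.52 over 8 healthy and 0.46 over 7 tumor-bearing mice. Both Il1b assays were above their group mean in 4 of 4 samples on panel B, by 0.88 log2 units for the 63-base assay, and below it in 4 of 4 on panel A. Of the assays with all values, 17.9% stood above in all 4 samples on panel B and 6.41% below in all 4 on panel A. The part of the panel in the spread of Il1b was not tested.

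The assays with the level pattern most like the 63-base Il1b assay, among 548 of other genes, were those of other inflammatory mediators. Il1f9, which encodes IL-36 gamma of the IL-1 family, had a rho of 0.92 over 24 samples. Trem1, an amplifying receptor of myeloid cells, had 0.82, and Tnf, the neutrophil chemokine Cxcl2 and the acute-phase gene Saa3 had 0.81 each. Taken as deviations from the group means, the values were 0.95 for Cxcl2, 0.93 for Trem1, 0.85 for Il1f9, 0.75 for Tnf and 0.70 for Saa3. The median rho over the 548 assays was -0.06.

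Il1a was most like Nlrp3, the inflammasome sensor, with a rho of 0.83 over 25 samples, followed by the neutrophil chemokine Cxcl5 at 0.78. The 2 assays of the chemokine Cxcl1 had 0.75 and 0.72, and the T cell checkpoint gene Ctla4 had 0.68. Il1rn had weaker partners, led by the nucleic acid sensor Tlr7 at 0.60 and the complement receptor C3ar1 at 0.56, with Actb at 0.55 and Igf1 and the scavenger receptor Stab1 at 0.54. As deviations from the group means these were lower for Tlr7 (0.44), Actb and Stab1 (0.36 each) and Igf1 (0.18), and 0.57 for C3ar1. With the sample's median Cq as the reference, Stab1 led at 0.81. For Il6, the assay Mm01210732_g1 was most like Tnfaip6 (0.63), which encodes a hyaluronan-binding protein induced in inflammation, and then Fos, Ifih1 and Cd44 (0.61 each) and Tnfsf11 (0.59).

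**Figure D5:**
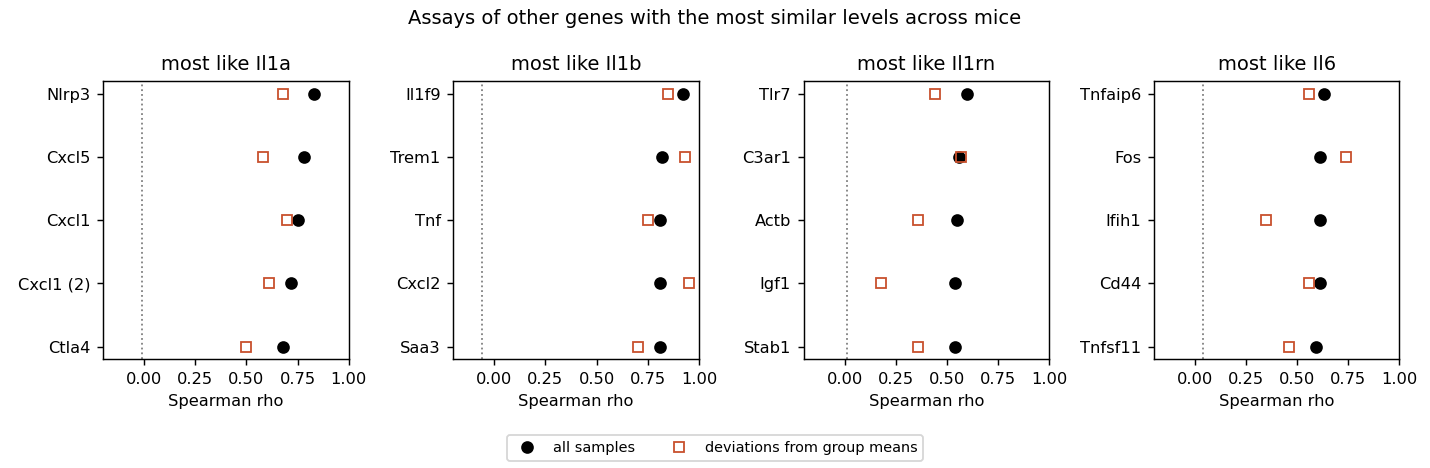
Spearman rho of each member gene (Il6 by Mm01210732_g1) with the 5 most similar assays of other genes. Black circles are over all samples and open squares over deviations from group means. The dotted line is the median over all assays. The highest are Il1f9, Trem1 and Cxcl2 for Il1b, at 0.92, 0.82 and 0.81, and those for Il1rn do not pass 0.60.

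Il1b followed some neutrophil markers and not others. Its rho was 0.65 with S100a8, 0.54 with S100a9, 0.58 with the formyl peptide receptor Fpr1 and 0.50 with Il8rb (Cxcr2). With the granule protein genes it was 0.01 for Camp, -0.08 for Ltf, -0.32 for Ela2 (Elane) and -0.28 for Prtn3. Ela2 shared only 23 samples with Il1b and Prtn3 only 20, and the remaining neutrophil markers shared 26 to 28. Over all 8 neutrophil markers on the panel, of 11 listed, the median rho was 0.26 for Il1b, 0.14 for Il1a and -0.26 for Il1rn. For Il6, by assay Mm01210732_g1 alone, it was -0.12. Such values were not particular to neutrophil markers. With Il1b the median rho was 0.39 over 4 dendritic cell markers, 0.23 over 5 T cell markers and 0.09 over 5 monocyte and macrophage markers. With Il1a these medians were 0.29, 0.26 and 0.02. The summed quantity of the 3 neutrophil markers with all values ranged at day 14 from 0.317 to 1.61 without a tumor and from 0.896 to 7.27 with one. At day 21 the ranges were 2.13 to 3.51 and 5.57 to 10.6. The median log2 difference of the 8 markers was 2.20 at day 14 and 2.90 at day 21, where no Il1a or Il1b assay passed. The part of neutrophils or other cells in the Il1b values was not tested.

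Among other genes of the IL-1 and IL-6 pathways, 44 of 57 listed were on the panel, counting receptors, inflammasome and adaptor genes, the gp130 cytokines and their targets. Of the 40 tested, 0 passed the limma threshold in tumor-bearing against healthy mice at any day. For days 7, 14 and 21, an unadjusted p under 0.05 was reached by 0, 1 and 4 of the 40, beside 2.12%, 10.5% and 9.08% of all assays. The median log2 difference of the 40 was -0.01, -0.10 and -0.12 at days 7, 14 and 21, beside 0.03, -0.08 and -0.001 over all assays. The smallest p at day 14 was that of the adaptor Myd88, at 0.18 ± 0.09 (adjusted p = 0.441), then of the IL-6 family cytokine Lif, at -0.42 ± 0.21 (adjusted p = 0.5). At day 21 it was that of Osm, another IL-6 family cytokine, at -0.74 ± 0.26 (adjusted p = 0.268), then of Cxcl2, at -1.86 ± 0.68 (adjusted p = 0.310). The smallest p at day 7 was that of Osm, at -0.34 ± 0.26 (adjusted p = 0.997), then of the acute-phase gene Saa1, at -1.29 ± 0.99.

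Between days the list also had 0 of its 40 or 41 tested genes past the threshold, where the share of all assays ran from 0.0% to 0.529%. In healthy mice from day 14 to day 21, the comparison in which Il1a and Il1b had their lowest p-values, the smallest p was that of Csf2, the growth factor GM-CSF, at 1.71 ± 0.45 log2 units, and then of Lifr, a receptor of the IL-6 family, at -0.63 ± 0.17. Both had a limma adjusted p of 0.0702. In tumor-bearing mice Csf2 was 1.07 ± 0.45 (adjusted p = 0.354) over the same days and 1.83 ± 0.54 (adjusted p = 0.154) from day 7 to day 21.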

How the data were processed

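RNA of 28 scaffolds, 1 per mouse, was assayed on TaqMan OpenArray inflammation panels, per the labels' protocols. The authors deposited raw Cq values and normalized ratios (relative quantities). Recomputing these ratios from the Cq values found the mean Cq of a set of reference genes, whose names are not reported here, as the reference, within 2.96e-05 cycles. Deposited fold changes were only quoted. The cycle-calling software is not given in the sources used here.

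Of 18144 reactions, 2244 (12.4%) had no Cq and stayed missing. The number of mice limits the precision. Tests used log2 ratios in limma 3.58.1 (R 4.3.3), with 1 mean per group over all samples, the panel as a random block (correlation 0.054, statmod 1.5.0), and Benjamini-Hochberg adjustment over all assays of a contrast. An assay needed a value in 50% of at least 1 group and 2 values in each group compared. Every ± after a log2 difference is its SE, and intervals are 95%. Permutation tests and correlations used Python 3.11.15 with scipy 1.17.1. The fit was checked on simulated data for the day 14 comparison of the conditions only, and not for the other comparisons.

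The members and gene lists were chosen with earlier results of these data known. Named are all member assays, pathway genes past the threshold or else the 2 smallest p-values, and, per member gene, the 5 most and 3 least similar assays by Spearman rho with at least 24 samples. The 4-cycle limit, other normalizations, block choices, filters and left-out mice were alternatives. One, all 11 reference assays with complete values, was chosen after seeing the data. Sequences and coordinates are RefSeq's (GRCm38.p6).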

Additional observations from a re-analysis of the deposited data

Results flagged for a closer look

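Single samples far from the rest of their group were looked for in the 14 sets of day 14 values, 1 per member assay and condition, and chance marks about 1 in 20 such sets. The first of the values below was known before this search, so finding it again is no independent observation. The 99-base Il1b assay (Mm99999061_mH) stood at 3.21 log2 units in healthy day 14 replicate 14, a relative quantity of 9.26, and the next highest mouse was at 0.338. The 63-base assay of the same gene gave 0.44 in that sample. Il1rn in tumor-bearing day 14 replicate 18 was the lowest of its group at 2.54 log2 units, a relative quantity of 5.80, and the next was 6.67. It lay within the range of the healthy mice of that day, 5.50 to 7.99.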

How the results depend on the processing

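No replicate number of 1 to 28 occurs in more than 1 group, so the numbers pair no mice; the pairs tested share a day and a panel. In 301 refits over the 13 contrasts, 0 had a member assay past the threshold. Of 907 alternative values of 39 differences, 60 had the opposite sign and 0 passed (smallest limma adjusted p 0.063). These 39 were the tumor-bearing minus healthy differences of the member assays and most of their steps between days given above. The differences between conditions in a step, and the steps of Il6 Mm00446190_m1 and Mm01210732_g1, were not among them. Leaving out 1 mouse moved the count of all assays past the threshold from 14 to between 8 and 15 at day 14, and from 7 to between 1 and 7 at day 21. The number of mice limits these small differences, and the cause of a turned sign was not tested.

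For tumor-bearing minus healthy mice, with raw Cq centred on the sample median, Il1a at day 7 was 0.05 and Il6 Mm00446190_m1 0.0043, and over the days Il1b (63 bases) was 0.053 and Il1rn 0.079. With missing reactions at the largest Cq, Il1a at day 14 was -2.15. Without reactions over 4 cycles from the group median, Il1b (99 bases) was 0.56 at day 14 and 0.0030 over the days. With no panel block, Il1rn over the days was 0.00012. With the panel as a fixed block, Il1rn at day 14 was -0.011, and over the days Il1a was 0.039, Il1b (63 bases) 0.013 and Il6 Mm01210732_g1 0.034. Without panels D and G these were -0.011, 0.0085, 0.013 and 0.034. In healthy mice, day 21 minus day 14 of Il1b (99 bases) was -0.59 with the fixed block and -0.40 without panels D and G. In tumor-bearing mice that of Il1b (63 bases) was -0.072 without panels D and G.

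Leaving out 1 mouse at a time gave these ranges for the differences whose sign turned. At day 7 they were -0.23 to 0.12 for Il1a, -0.077 to 0.65 and -0.18 to 0.49 for Il1b (63 and 99 bases), and -0.068 to 0.12 for Il1rn. For Il6 they were -0.42 to 0.48 (Mm00446190_m1), -0.75 to 0.32 (Mm01210732_g1) and -0.16 to 0.55 (Mm01210733_m1). At day 14 they were -0.55 to 0.56 for Il1b (99 bases), -0.027 to 0.047 for Il1rn and -0.38 to 0.014 for Il6 Mm01210733_m1. At day 21 they were -0.15 to 0.080 for Il1rn and -0.53 to 0.17 for Il6 Mm01210733_m1. Over the days they were -0.31 to 0.020 for Il1a, -0.14 to 0.10 and -0.42 to 0.0025 for Il1b (63 and 99 bases), -0.039 to 0.047 for Il1rn and -0.21 to 0.036 for Il6 Mm01210733_m1. Day 21 minus day 14 ranged from -0.056 to 1.11 for Il1b (99 bases) in healthy mice. In tumor-bearing mice it ranged from -0.18 to 0.79 for Il1a and -0.022 to 0.55 for Il1b (63 bases).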

Other observations

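The assays least like each member were also fixed by rule. Il1b had its lowest Spearman rho with the lysosomal enzyme gene Gusb (-0.81 over 28 samples), then with Hdac7 and Txlna (-0.72 each). Il1a had its lowest with Gusb as well (-0.64, another Gusb assay), then with Pdgfb and the glucocorticoid receptor gene Nr3c1 (-0.62 each). Il1rn had its lowest with the 2 assays of Cxcl1 (-0.67 and -0.64) and with Il23a (-0.60), so Cxcl1 was among the most similar to Il1a and the least similar to its antagonist. Il6, by assay Mm01210732_g1 alone, had its lowest with Tslp (-0.58), Bad (-0.52) and the complement gene C6 (-0.51). As deviations from the group means all of these were weaker, from -0.67 for Gusb with Il1b to -0.20 for Il23a with Il1rn. Pdgfb with Il1a and Tslp with Il6 had -0.32 each, and the 2 Cxcl1 assays with Il1rn had -0.53 and -0.57. With the sample's median Cq as the reference, Il23a with Il1rn was -0.29.

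Tumor-bearing day 21 replicate 26 held the highest Il1a (0.0780, of 27 mice with a value) and the lowest Il1rn (4.85, of 28). Its Il1b was 0.815 in the 63-base assay. The 4 member reactions without a Cq were Il1a in tumor-bearing day 14 replicate 21 and Il6 Mm00446190_m1 in healthy replicate 13 and tumor-bearing replicates 21 and 22 of day 14.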
